A study of Mus musculus with 19 samples.

Results

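Transcripts of 10 mouse genes of threonine, serine and one-carbon metabolism were followed through the step from mouse embryonic stem cells (mESC) to epiblast-like cells (EpiLC) in 3 genotypes. The genes were taken by name: Tdh, Gcat, Gldc, Phgdh, Psat1, Shmt2, Mthfd2, Mthfd1l, Mat2a and Ahcy, 10 of the 54119 genes to which transcript values were summed. The XX cells were of the LF2 line, the Tet3-/- cells were also XX and of the LF2 line and lack both copies of Tet3, and the XY cells were of the E14 line. All mESC were grown with LIF plus inhibitors of MEK and GSK3, and EpiLC were made from them with FGF5 and Activin A over 5 days after LIF was withdrawn. There were 3 XX, 3 XY and 4 Tet3-/- libraries of mESC and 3 libraries of each genotype of EpiLC, 19 in all. The mutant libraries carry the numbers 1 to 4 in mESC and 1, 3 and 4 in EpiLC, and the labels do not say whether these are separate clones. With 1 line per sex, sex and line cannot be told apart. The labels do not say that libraries of a group came from separate cultures, so p-values measure only the spread between these samples, which may be technical.

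In mouse mESC, threonine is broken down in mitochondria by threonine dehydrogenase (TDH) and its partner GCAT to glycine and acetyl-CoA, and mESC are known to depend on this route. Glycine is split by the glycine cleavage system, whose decarboxylase is GLDC, and serine made from a glycolytic intermediate by PHGDH and PSAT1 is turned to glycine by SHMT2; both reactions load a carbon unit onto folate. MTHFD2 and MTHFD1L carry that unit through the mitochondrial folate pathway, and the methionine cycle, in which MAT2A makes S-adenosylmethionine and AHCY removes its spent form, supplies the methyl groups of DNA and histone methylation.

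Values are TPM (transcripts per 1000000) as deposited, and scaled TPM, which is TPM divided by 1 factor per library so that the median gene has the same level in all libraries. The scaling matters because the small RNAs Rn7s1, Rn7s2 and Rn7sk together held from 31.4% to 55.9% of TPM and protein-coding genes from 21.4% to 46.7%, and because the median gene moved by 0.54 (log2) in the XY transition and by -0.59 between XX and XY EpiLC on unscaled TPM. On scaled values it moved by at most 0.02. TPM holds no record of depth, which is unknown here. Tet3 itself lay from 0.522 to 0.847 scaled TPM in Tet3-/- mESC and from 0.656 to 1.24 in XX mESC, and from 1.06 to 1.32 against 1.41 to 1.92 in EpiLC, and was called in neither state (log2 fold change -0.21 and -0.34, limma adjusted p 0.44 and 0.115). Which part of the gene was deleted is not given in the sources used here, so this gene-level value does not check the label. Naive pluripotency markers (7 genes) summed to between 320 and 438 scaled TPM in mESC, between 46.5 and 47.8 in XX EpiLC, between 13.4 and 22.7 in Tet3-/- EpiLC and between 5.71 and 6.6 in XY EpiLC. In mESC the formative markers (6 genes) summed to 27.9 to 34.7 in XX, 15.2 to 24.7 in XY and 25.1 to 31.6 in Tet3-/-. In EpiLC they summed to between 50 and 52.6 in XX and between 245 and 252 in XY. Tet3-/- EpiLC 1, 3 and 4 stood at 68.2, 125 and 75.8. Among these markers Fgf5 stood from 34.8 to 37.1 in XY EpiLC and from 2.47 to 2.75 in XX EpiLC. In the Tet3-/- EpiLC it stood at 4.78, 32.8 and 5.48. Otx2 went the other way in XX, from 17.1 to 27.5 in mESC to 11.4 to 12.1 in EpiLC. In Tet3-/- EpiLC 1, 3 and 4 Otx2 was at 21.4, 16.7 and 19.3 and Sall2 at 4.70, 3.53 and 4.16. Fibroblast feeder markers (6 genes) summed to at most 7.18 in any library.

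The 3 libraries that stood furthest from the others of their group over all genes were XX mESC 2, XY mESC 2 and Tet3-/- EpiLC 3. In Tet3-/- EpiLC 3 the mesendoderm markers (4 genes) summed to 97.6 scaled TPM, against 4.07 and 4.97 in the other two, with T at 70.8 and Eomes at 13.0. The part of these markers in the members' values was not tested.

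The first question was which of the 10 genes change between the states, in each genotype. Tdh fell in all 3 genotypes and was the gene with the largest change of the 10 in each. Mat2a also fell in all 3. Gldc and Mthfd2 rose in XY, and Phgdh rose in XY and in Tet3-/-. Gcat and Ahcy fell in XY. Psat1, Shmt2 and Mthfd1l were called in none of the transitions on scaled values. By limma on log2(scaled TPM + 1), a gene being called at an adjusted p under 0.05 over 14972 genes, XX had 2 of 10 members called, both lower, where 50.4% of all genes tested were called and 25.9% were called lower. XY had 7 of 10, with 3 higher and 4 lower (background 51.4% of genes, 26.4% higher and 25% lower). Tet3-/- had 3 of 10, with 1 higher and 2 lower (background 52.4%, 25.2% higher and 27.2% lower). The members' share was thus below the background in XX and Tet3-/- and above it in XY. The median log2 fold change of the 10 was -0.17, 0.39 and 0.11 in the 3 transitions, and that of all genes was within 0.02 of 0. On unscaled TPM 1, 5 and 1 members were called (background 31.3%, 50.5% and 35.1%).

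**Figure D1:**
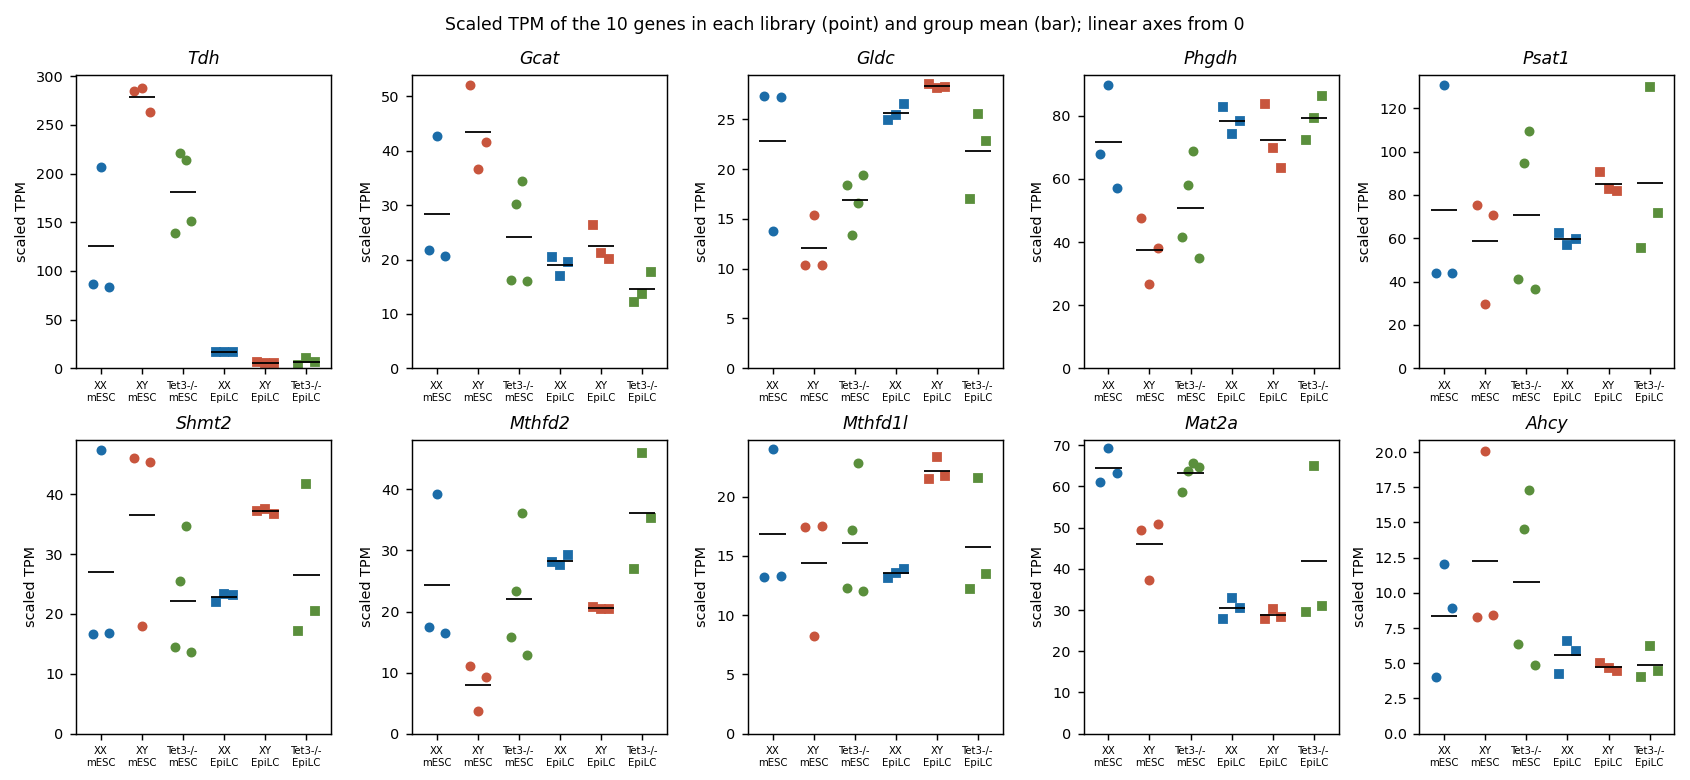
Scaled TPM (linear axis from 0) of each of the 10 genes in every library, with circles for mESC, squares for EpiLC and a bar for the group mean. Tdh lies between 83.1 and 287 in mESC and between 3.14 and 17.1 in EpiLC, whereas most of the other genes overlap between the states.

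Tdh (ENSMUSG00000021953.14) lies on the minus strand of chromosome 14 at 63492347 to 63509092 (GRCm38), and its full-length coding transcript Tdh-201 held from 93.0% to 95.7% of its TPM in the group means. In XX mESC it had 87.0, 207 and 83.1 scaled TPM in libraries 1 to 3, in XY mESC 285, 287 and 263, and in Tet3-/- mESC 139, 221, 214 and 151 in libraries 1 to 4. In EpiLC it had 16.7, 17.0 and 17.1 in XX, 6.30, 5.30 and 5.65 in XY, and 3.14, 10.1 and 6.62 in Tet3-/- libraries 1, 3 and 4. No mESC library was as low as any EpiLC library of its own or another genotype. The XY mESC libraries were all higher than every other library, and the XX EpiLC libraries were all higher than the other EpiLC.

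The fall of Tdh was 7.43-fold between the group means in XX (log2 fold change -2.69, SE 0.33, limma adjusted p 4.38e-06), 48.4-fold in XY (-5.37, SE 0.33, adjusted p 1.09e-09) and 27.4-fold in Tet3-/- (-4.66, SE 0.31, adjusted p 2.28e-09). On unscaled TPM the means went in XX from 113 ± 90.6 to 16.0 ± 1.49 (SD, n = 3 each), in XY from 280.2 ± 75.9 to 9.03 ± 0.527 (SD, n = 3 each) and in Tet3-/- from 178 ± 43.0 (SD, n = 4) to 6.71 ± 5.90 (SD, n = 3). Tdh was called lower there too in each genotype. On scaled TPM the order from the highest group mean to the lowest was XY mESC, Tet3-/- mESC, XX mESC, XX EpiLC, Tet3-/- EpiLC and XY EpiLC. On unscaled TPM Tet3-/- EpiLC was the lowest, at 6.71 beside 9.03 in XY EpiLC. Tet3-/- and XY EpiLC overlapped, and Tet3-/- and XX mESC overlapped through XX mESC 2 alone, at 207 beside 87.0 and 83.1.

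**Figure D2:**
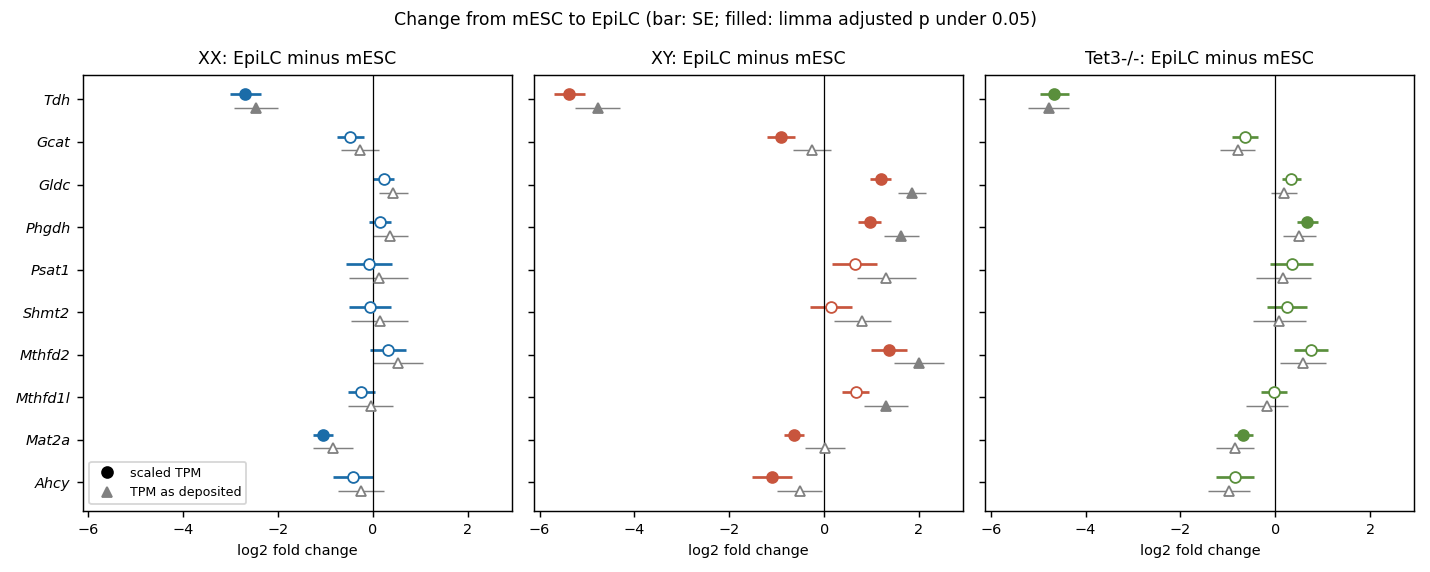
Log2 fold change from mESC to EpiLC (x axis) of the 10 genes (y axis) in XX, XY and Tet3-/- cells, on scaled TPM (circles) and on TPM as deposited (triangles); bars are the SE and filled symbols passed an adjusted p of 0.05. Tdh is far to the left in each genotype, at -2.69, -5.37 and -4.66 on scaled TPM, and the remaining points lie within 2 log2 units of 0.

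Gcat (chromosome 15, 79030874 to 79038353, plus strand), which takes the product of TDH to glycine, was called in XY alone of the 3 transitions. Its scaled TPM was 52.0, 36.7 and 41.6 in XY mESC and 26.4, 21.1 and 20.0 in XY EpiLC, with no overlap (log2 fold change -0.91, SE 0.29, limma adjusted p 0.0156). In XX mESC it was 21.7, 42.8 and 20.6 and in XX EpiLC 20.5, 17.0 and 19.6, and the fold change did not pass (-0.48, limma adjusted p 0.193). In Tet3-/- mESC it was 16.2, 30.3, 34.4 and 16.0 and in Tet3-/- EpiLC 12.1, 13.7 and 17.7 (-0.64, limma adjusted p 0.0616). In both of these genotypes the mESC libraries fell apart into high and low ones, and the low ones were close to EpiLC. The XY call was lost on unscaled TPM (-0.26), without XY mESC 1 (-0.78) and without XY EpiLC 3 (-0.84), and the Tet3-/- value passed without Tet3-/- mESC 1 (-0.79), Tet3-/- mESC 4 (-0.80) or XX mESC 2 (-0.64). For Gcat the XX change minus the XY change was 0.44 (limma adjusted p 0.493). From 40.8% to 47.3% of its TPM sat on Gcat-202, a coding transcript of 679 bases, and the remainder on Gcat-201, of 2370 bases.

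Gldc (chromosome 19, 30098447 to 30175429, minus strand) moved opposite to Tdh in XY. The glycine decarboxylase transcript was at 10.3, 15.4 and 10.4 scaled TPM in XY mESC and at 28.6, 28.2 and 28.2 in XY EpiLC. Every XY EpiLC library was above every XY mESC library, and the rise was 1.19 (SE 0.22, limma adjusted p 0.000285; 1.85 on unscaled TPM). XX mESC had 27.4, 13.8 and 27.3 and XX EpiLC 24.9, 25.4 and 26.6, so that 2 of the 3 XX mESC libraries were already at or above the EpiLC level (0.22, limma adjusted p 0.429). Tet3-/- mESC had 18.4, 13.4, 16.6 and 19.4 and Tet3-/- EpiLC 17.0, 25.6 and 22.8 (0.34, limma adjusted p 0.184). The canonical transcript Gldc-201 held from 95.4% to 98.4% of the TPM in each group.

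Phgdh (chromosome 3, 98313170 to 98339990, minus strand), the first and committed enzyme of serine synthesis, was higher in EpiLC of XY and Tet3-/- cells. In XY it went from 47.8, 26.7 and 38.1 scaled TPM in mESC to 83.6, 70.0 and 63.4 in EpiLC (log2 fold change 0.96, SE 0.24, limma adjusted p 0.00297). In Tet3-/- it went from 41.7, 58.2, 68.8 and 34.8 to 72.4, 79.3 and 86.3 (0.68, SE 0.22, limma adjusted p 0.0172). Neither pair of groups overlapped. In XX, mESC at 68.0, 89.9 and 57.1 overlapped EpiLC at 82.8, 74.3 and 78.3 (0.15, limma adjusted p 0.623). The EpiLC ranges of the 3 genotypes overlapped, and in mESC every XX library was above every XY library. The Tet3-/- call was lost on unscaled TPM (0.50, limma adjusted p 0.291), without Tet3-/- mESC 4 (0.51) and without Tet3-/- EpiLC 4 (0.61).

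Psat1 (chromosome 19, 15904678 to 15947337, minus strand), the aminotransferase after PHGDH, was called in no transition. Its scaled TPM was 44.2, 130.5 and 44.1 in XX mESC, 75.6, 29.5 and 70.9 in XY mESC and 41.3, 94.8, 109.6 and 36.7 in Tet3-/- mESC. In EpiLC it was 62.6, 56.8 and 59.7 in XX, 90.7, 82.6 and 82.0 in XY and 55.5, 129.8 and 71.4 in Tet3-/-. Within each mESC group the libraries split into high and low ones, while XX and XY EpiLC were tight. The log2 fold changes for XX, XY and Tet3-/- were -0.09, 0.64 and 0.34 (limma adjusted p 0.895, 0.282 and 0.553). In XY the groups did not overlap. The share of all genes that do not overlap in a transition is not given, so non-overlap is only a description, here and for the other members.

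Shmt2 (chromosome 10, 127517123 to 127522444, minus strand), which makes glycine and a one-carbon unit from serine in mitochondria, was called in no transition either. It stood at 16.7, 47.4 and 16.8 scaled TPM in XX mESC, 46.0, 17.9 and 45.5 in XY mESC and 14.5, 25.4, 34.8 and 13.7 in Tet3-/- mESC. In EpiLC it stood at 21.9, 23.3 and 23.2 in XX, 37.2, 37.6 and 36.7 in XY and 17.1, 41.7 and 20.5 in Tet3-/-. The high libraries of Psat1 were also the high ones of Shmt2, XX mESC 2, Tet3-/- mESC 2 and 3 and Tet3-/- EpiLC 3, and XY mESC 2 was low in both.

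Mthfd2 (chromosome 6, 83305691 to 83325908, minus strand), the mitochondrial enzyme that oxidises methylene-folate, rose in XY. XY mESC had 11.0, 3.69 and 9.29 scaled TPM and XY EpiLC 20.8, 20.4 and 20.5, with no overlap (log2 fold change 1.37, SE 0.38, limma adjusted p 0.00703; 2.00 on unscaled TPM). XX mESC had 17.5, 39.2 and 16.4 and XX EpiLC 28.1, 27.6 and 29.3 (0.32, limma adjusted p 0.516). Tet3-/- mESC had 15.9, 23.4, 36.1 and 12.8 and Tet3-/- EpiLC 26.9, 46.0 and 35.3 (0.76, limma adjusted p 0.0892), which passed without Tet3-/- mESC 3 (1.02). XX mESC 2 lay above all XX EpiLC and the other XX mESC below them, and Tet3-/- mESC 3 lay within the Tet3-/- EpiLC range.

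Mthfd1l (chromosome 10, 3973118 to 4167081, plus strand), which releases formate from folate in mitochondria, had 17.4, 8.22 and 17.5 scaled TPM in XY mESC and 21.5, 23.3 and 21.7 in XY EpiLC. These groups did not overlap. The fold change of 0.66 missed the threshold (limma adjusted p 0.0707). It passed on unscaled TPM (1.30, limma adjusted p 0.0281), and, on scaled TPM, without XY mESC 3 (0.83) or XX mESC 2 (0.66, limma adjusted p 0.0464). In XX it was 13.2, 24.0 and 13.3 in mESC and 13.2, 13.6 and 13.9 in EpiLC. In Tet3-/- it was 12.3, 17.2, 22.8 and 12.0 in mESC and 12.2, 21.6 and 13.5 in EpiLC. Neither LF2 genotype passed (-0.24 and -0.02).

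Mat2a (chromosome 6, 72432799 to 72439558, minus strand), the S-adenosylmethionine synthetase of non-liver cells, fell in all 3 genotypes on scaled values. XX mESC had 61.0, 69.3 and 63.3 scaled TPM and XX EpiLC 27.9, 32.9 and 30.6 (log2 fold change -1.06, SE 0.21, limma adjusted p 0.000521). XY mESC had 49.5, 37.3 and 51.0 and XY EpiLC 27.9, 30.3 and 28.3 (-0.64, SE 0.21, limma adjusted p 0.0176). Tet3-/- mESC had 58.7, 63.7, 65.7 and 64.8 and Tet3-/- EpiLC 29.5, 65.0 and 31.0 (-0.68, SE 0.20, limma adjusted p 0.00829). XX and XY groups did not overlap, and Tet3-/- EpiLC 3 alone kept the mESC level.

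The Mat2a calls depend on the scaling: on unscaled TPM the log2 fold changes were -0.84, 0.016 and -0.84 and none passed (limma adjusted p 0.151, 0.98 and 0.114), so the direction in XY is not fixed by the unscaled data. In XY the call was also lost without XY mESC 1 (-0.58) or XY mESC 3 (-0.56), and in Tet3-/- without Tet3-/- EpiLC 1 (-0.48) or Tet3-/- EpiLC 4 (-0.52). Mat2a TPM was spread over several transcripts. The coding Mat2a-201 made up 23.9% ± 20.1 of it in XX mESC (SD, n = 3) and 54.6% ± 3.26 in XY EpiLC (SD, n = 3), and Mat2a-202 held 31.6% ± 9.40 and 15.1% ± 1.43 (SD, n = 3 each). The retained-intron transcripts Mat2a-207 and Mat2a-210 held from 8.09% to 11.7% and from 10.1% to 13.4% in the group means, and the coding Mat2a-206 held 10.2% in XX mESC and 0.980% in XY mESC.

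Ahcy (chromosome 2, 155059310 to 155074497, minus strand), which clears S-adenosylhomocysteine, had the lowest mean TPM of the 10 over all libraries, though not in XY mESC, and its value is uncertain because of a copy. Gm4737, an intronless coding gene on chromosome 16 (46152985 to 46155077), is 99.7% identical to Ahcy-201 over 2083 bases with 6 mismatches and no gap, 4 of the 6 in the 1299 coding bases. Of the TPM given to Ahcy and its 3 annotated copies, from 87.7% to 95.6% sat on the copies in each library, nearly all of it on Gm4737 at 51.8 to 199.6 TPM. The coding mismatches lie in pairs, and the 2 windows below show how little separates the transcripts. Each line is numbered from 1 at the 5′ end of its own transcript, Ahcy-201 or Gm4737-201 (GENCODE M21, GRCm38). Substitutions count from the 5′ end of Ahcy-201, and capitals mark the mismatched bases, C564T and G579A in the first pair and C1155T and C1173T in the second.
Ahcy 534 to 594: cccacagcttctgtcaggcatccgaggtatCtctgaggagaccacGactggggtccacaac
Gm4737 494 to 554: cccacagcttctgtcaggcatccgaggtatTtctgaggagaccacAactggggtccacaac
Ahcy 1125 to 1185: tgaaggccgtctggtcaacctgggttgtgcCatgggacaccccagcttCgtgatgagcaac
Gm4737 1085 to 1145: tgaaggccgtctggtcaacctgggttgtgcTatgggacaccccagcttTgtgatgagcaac

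**Figure D3:**
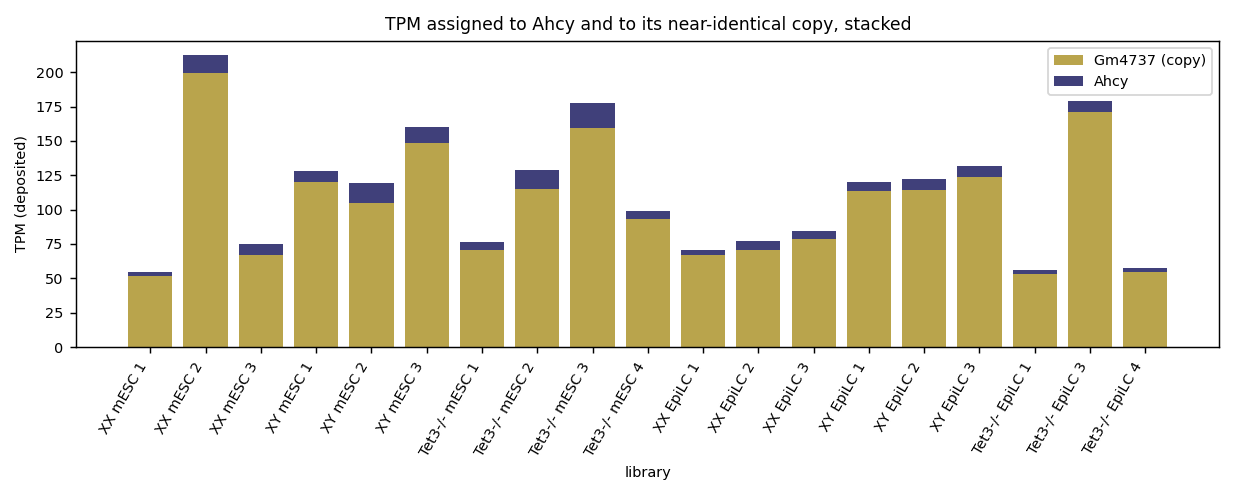
Deposited TPM (y axis, from 0) assigned to Gm4737 and to Ahcy in each library (x axis), stacked. The Gm4737 part runs from 51.8 to 199.6 and the Ahcy part from 2.40 to 17.7.

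Ahcy alone had 8.27, 20.1 and 8.41 scaled TPM in XY mESC and 5.01, 4.68 and 4.48 in XY EpiLC, with no overlap (log2 fold change -1.10, SE 0.42, limma adjusted p 0.0389). Without XY mESC 2, which holds the high value, the change was -0.71 (limma adjusted p 0.199), and the call was also lost without XY EpiLC 1 (-1.13), XY EpiLC 2 (-1.09) or XY EpiLC 3 (-1.07) and on unscaled TPM (-0.51). XX had 4.03, 12.1 and 8.92 in mESC and 4.23, 6.58 and 5.86 in EpiLC, and Tet3-/- had 6.38, 14.5, 17.3 and 4.85 in mESC and 4.05, 6.20 and 4.43 in EpiLC. Both overlapped and neither passed (-0.42 and -0.86, limma adjusted p 0.436 and 0.0809), although Tet3-/- passed without Tet3-/- mESC 4 (-1.14). When Ahcy and its copies were added together the XY transition was still called lower (-0.78, limma adjusted p 0.0425) and the other transitions were not called (-0.52 and -0.28). On unscaled TPM the XY sum was at -0.11 and was not called. The short coding transcript Ahcy-202 held up to 33.1% of Ahcy TPM in a group mean (Tet3-/- mESC) and 0% in XY and Tet3-/- EpiLC. On unscaled TPM its mean was 2.89 in XY mESC and 0 in XY EpiLC. The coding Ahcy-201 had means of 5.69 and 5.35 there, and the retained-intron Ahcy-203 had 2.78 and 2.08. The part of Ahcy-202 in the XY call was not tested. For the other members, copies held at most 1.48% of the TPM (Phgdh, with 18 copies), and 5 genes had none. Shmt2 shares sequence span with Ndufa4l2 on the opposite strand, which had at most 4.28 TPM in any library.

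The 3 deviating libraries move several transition values. Without XX mESC 2 the XX changes of Psat1 and Shmt2 went from -0.09 and -0.06 to 0.43 each, that of Mthfd2 from 0.32 to 0.71, that of Gcat from -0.48 to -0.15 and that of Gldc from 0.22 to -0.09. Those of Phgdh, Mthfd1l and Ahcy went from 0.15, -0.24 and -0.42 to 0.33, 0.03 and -0.12. None of these 8 passed (limma adjusted p from 0.135 to 0.951), and the calls of Tdh (-2.26) and Mat2a (-1.01) remained. Without XY mESC 2 the XY changes of Psat1, Shmt2 and Mthfd1l were 0.21, -0.29 and 0.33 and did not pass (limma adjusted p 0.762, 0.628 and 0.362), and Mthfd2 was at 0.95, just inside the threshold (limma adjusted p 0.0484). Without Tet3-/- EpiLC 3 the Tet3-/- fall of Mat2a was larger (-1.04, limma adjusted p 2e-06), and the Tet3-/- values of Psat1, Shmt2, Gldc and Mthfd1l were -0.003, -0.12, 0.22 and -0.26 and did not pass. Of the members' transition calls, only that of Ahcy in XY was lost without the deviating library of its own genotype.

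The second question was whether the loss of Tet3 alters these genes. In mESC, 0 of 10 members were called by limma between Tet3-/- and XX (background 3.18%, and 0.601% on unscaled TPM, where 0 were called), with 1 member, Phgdh, at an unadjusted p under 0.05 (log2 fold change -0.51, limma adjusted p 0.284). Their log2 fold changes ran from -0.51 to 0.63, and the groups overlapped for each of the 10 (12.4% of all genes tested did not overlap). Without XX mESC 2 the Tdh value went from 0.63 to 1.05 (limma adjusted p 0.0227) and the Gldc value from -0.36 to -0.67 (limma adjusted p 0.02). The number of all genes called also changed with the library left out, over the range given in the last paragraph. The share in this fit is not given, so these calls are not read as particular to the members. XX mESC 2 was at 207 for Tdh where the other XX mESC were at 87.0 and 83.1, and at 13.8 for Gldc where they were at 27.4 and 27.3.

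In EpiLC, 1 of 10 members, Tdh, was called lower in Tet3-/- than in XX (background 5.46% of genes, 2.97% lower). The mutants at 3.14, 10.1 and 6.62 scaled TPM were all below the XX libraries at 16.7, 17.0 and 17.1, a 2.56-fold difference of the means (log2 fold change -1.35, SE 0.33, limma adjusted p 0.024). This call was lost on unscaled TPM (-1.41, limma adjusted p 0.217, background 1.08%), in a fit of these groups alone (limma adjusted p 0.113), with no filter on low genes (limma adjusted p 0.0599), without Tet3-/- EpiLC 1 (-0.96, limma adjusted p 0.078) and without XX EpiLC 1, 2 or 3 (-1.36, -1.35 and -1.34). A replicate block in the fit ended the Tdh call as well. The naive marker sum was lower in the same mutants (13.4 to 22.7 against 46.5 to 47.8), and its part in the Tdh result was not tested. The other 9 members had log2 fold changes from -0.38 to 0.42, and Mat2a stood at 65.0 in Tet3-/- EpiLC 3 but at 29.5 and 31.0 in the other mutants, beside 27.9 to 32.9 in XX.

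No member passed when the Tet3-/- transition was compared with the XX transition by limma (0 of 10, background 0.661%, with 1 at an unadjusted p under 0.05, and on unscaled TPM 0 of 10, background 0.174%). That member was Tdh, whose fall was larger in Tet3-/- by 1.98 log2 units as fitted (-1.98, SE 0.45, limma adjusted p 0.0597). The difference passed without XX mESC 2 (-2.40, limma adjusted p 0.00327), without Tet3-/- EpiLC 3 (-2.30, limma adjusted p 0.0139) and without the 3 deviating libraries together (-2.73, limma adjusted p 0.00049). The other 9 differences ran from -0.44 to 0.52.

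The third comparison was of the XX with the XY line. In mESC, 4 of 10 members were called (3 higher and 1 lower in XX, background 31.3%, 17.7% higher and 13.6% lower). Tdh was lower in XX, 2.22-fold between the means, with no overlap of 83.1 to 207 against 263 to 287 (log2 fold change -1.27, SE 0.33, limma adjusted p 0.0074). Mthfd2 was higher in XX (1.49, SE 0.38, limma adjusted p 0.00723), at 16.4 to 39.2 against 3.69 to 11.0, and so was Phgdh (0.93, SE 0.24, limma adjusted p 0.00692), at 57.1 to 89.9 against 26.7 to 47.8. Gldc was higher in XX (0.83, SE 0.22, limma adjusted p 0.00926), but the groups overlapped through XX mESC 2, at 13.8, and XY mESC 2, at 15.4. On unscaled TPM only Tdh was called (background 14.2%), and a fit of these 2 groups alone called 0 of the 10 (background 15.5%).

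Single libraries weigh on these mESC values. The Gldc call was lost without XX mESC 1 (0.67) or XX mESC 3 (0.67), while Gcat was called lower in XX without XX mESC 2 (-0.99, limma adjusted p 0.0103) and Mat2a was called higher in XX without Tet3-/- EpiLC 3 (0.49, limma adjusted p 0.00237), a library outside the comparison whose spread enters the shared estimate. Without the 3 deviating libraries Mthfd2 and Phgdh were no longer called (0.69 and 0.54) while Shmt2 (-1.40, limma adjusted p 0.00227) and Gcat (-1.10) were called lower and Mat2a (0.30) higher in XX. More of all genes tested were called in that fit as well, and their number is given in the section on processing. These new calls are therefore not read as particular to the members.

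In EpiLC, 1 of 10 members was called between the lines (background 33.8%, 17.2% higher): Tdh was higher in XX, at 16.7 to 17.1 against 5.30 to 6.30 (log2 fold change 1.41, SE 0.33, limma adjusted p 0.00328; 0.76 and not called on unscaled TPM). The sign of the Tdh difference between the lines was thus opposite in the 2 states. The XX and XY EpiLC libraries are tighter than the mESC libraries with which the fit shares its spread, and when only these 2 groups were fitted 6 of 10 members were called, a share near the background of 57.7%. Shmt2 (-0.68, limma adjusted p 5.39e-05), Mthfd1l (-0.67, limma adjusted p 0.000109), Psat1 (-0.50, limma adjusted p 0.000824) and Gldc (-0.14, limma adjusted p 0.0234) were lower in XX there. Mthfd2 was higher in XX in that fit (0.45, limma adjusted p 0.00022), as was Tdh. None of these 6 overlapped between XX and XY EpiLC on scaled values, nor did 65% of all genes tested.

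On unscaled TPM, where the median gene was lower in XX EpiLC by 0.59 log2 units (-0.59), Gldc and Mthfd1l were called lower in XX (-0.86 and -1.38, background 47.2%) and Mthfd2 was at -0.27, the opposite sign to that on scaled values. In the fit of all groups Mthfd1l passed without XY mESC 2 (-0.67, limma adjusted p 0.0479), and Mthfd1l and Shmt2 passed without the 3 deviating libraries (limma adjusted p 0.00582 and 0.0399).

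The transitions of the lines were then compared with each other, and 2 of 10 members differed (background 23.7%, 10.9% higher and 12.8% lower). The fall of Tdh was smaller in XX, by 2.69 log2 units (SE 0.47, limma adjusted p 0.000556), and the difference was called on unscaled TPM too (2.31, limma adjusted p 0.0238, background 16% there). The change of Gldc was lower in XX than in XY (-0.97, SE 0.31, limma adjusted p 0.0345, and -1.42 on unscaled TPM). In XX itself Gldc was not called (0.22, limma adjusted p 0.429). The Gldc call was lost without XX mESC 1 or 3, without XY mESC 1 or 3 and without any 1 of the EpiLC libraries of either line, 10 libraries in all, with values from -0.99 to -0.81, and it was made without XX mESC 2 or XY mESC 2. Mthfd2, Mthfd1l and Phgdh had differences of -1.05, -0.90 and -0.81, none of which passed (limma adjusted p 0.186, 0.131 and 0.0952). As the comparisons of this and the preceding paragraphs share libraries, their values are given side by side only.

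Several members varied between the libraries of a group more than most genes. In mESC, the within-group SD of log2(scaled TPM + 1) was 0.81 for Psat1, 0.74 for Ahcy, 0.73 for Shmt2 and 0.67 for Mthfd2, which places them at the 97.3, 96.6, 96.3 and 95.5 percentiles of all genes tested (median SD 0.21). The Ahcy value leaves out its copy Gm4737. In XY mESC Ahcy alone stood at 8.27, 20.1 and 8.41 scaled TPM, and with its copies at 135.8, 162.8 and 116.8. In XX mESC the sum with copies varied too, at 91.3, 202.3 and 88.0. Within Ahcy, the short transcript Ahcy-202 varied between libraries. It held from 0% to 58.8% of Ahcy TPM in XY mESC, from 0% to 52.1% in XX mESC and from 0% to 47.9% in Tet3-/- mESC. The part of the copy and the part of Ahcy-202 in the spread of Ahcy were not tested. Mat2a, at 0.15, was at the 25.8 percentile. In EpiLC the SD was 0.42 for Tdh (the 92.7 percentile) and from 0.36 to 0.38 for Psat1, Shmt2 and Mat2a (at most the 90.9 percentile), and Tet3-/- EpiLC 3 held the highest mutant value of each.

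Shmt2, Mthfd2, Mthfd1l and Phgdh lay on the same side of their group mean as Psat1 in 10 of 10 mESC libraries, as did 6.91% of the other genes tested. Gldc lay on the opposite side in 10 of 10, as did 9.63% of genes. Gcat and Mat2a followed Psat1 in 9 of 10, Tdh in 8 of 10 and Ahcy in 6 of 10. In the 9 EpiLC libraries the 9 other members followed Psat1 in 5 to 7. The sides within a group of 3 or 4 libraries are not independent of each other, so these counts are a description.

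In XX mESC 2, 4 of 10 members were at least 1 log2 unit above the mean of the other XX mESC (Psat1 by 1.54, Shmt2 by 1.45, Tdh by 1.27 and Mthfd2 by 1.17), against 2.92% of all genes. Gldc was below it by 0.94 (-0.94). In XY mESC 2, 4 of 10 were as far below (Shmt2 at -1.31, Psat1 at -1.29, Mthfd2 at -1.25 and Mthfd1l at -1.001), against 1.04% of all genes, and Ahcy was above by 1.17. In Tet3-/- mESC 3 the 3 members above were Ahcy, Mthfd2 and Psat1 (1.07, 1.06 and 1.05, against 0.461% of genes), and in Tet3-/- EpiLC 3 they were Shmt2, Mat2a and Psat1 (1.11, 1.08 and 1.03, against 3.17%). Protein-coding genes held 41.5% of TPM in XX mESC 2 and 21.4% and 27.5% in the other XX mESC, and 30.1% in XY mESC 2 beside 35.0% and 43.2%; whether this share has a part in the members' values was not tested. Primitive endoderm markers (7 genes, 2 of them tested) summed to 4.8, 1.08 and 4.88 scaled TPM in XX mESC 1 to 3, with Gata6 at 3.61, 0.44 and 3.84. They summed to 3.12, 0.764, 0.731 and 2.57 in Tet3-/- mESC 1 to 4 and to 0.454, 0.94 and 0.565 in XY mESC 1 to 3. In XX and Tet3-/- mESC the sum was thus low in the libraries where Psat1 and Shmt2 were high. In XY mESC it was highest where they were low. Not every gene followed the sum: Sox7 was highest in XX mESC 2, at 0.011, 0.152 and 0 in XX mESC 1 to 3. Of the 7 genes, 6 in XX mESC and 7 in the other mESC had a group mean under 1, and none was at 0 throughout a group. In Tet3-/- EpiLC 3 the sum was 10.1, beside 1.29 and 1.61. There Foxa2 was at 3.96, Sox17 at 2.53, Gata6 at 1.57 and Afp at 0. In XY EpiLC the sum was 3.77 to 4.52, with Foxa2 from 2.16 to 2.66. The part of these endoderm markers in the members' values was not tested.

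**Figure D4:**
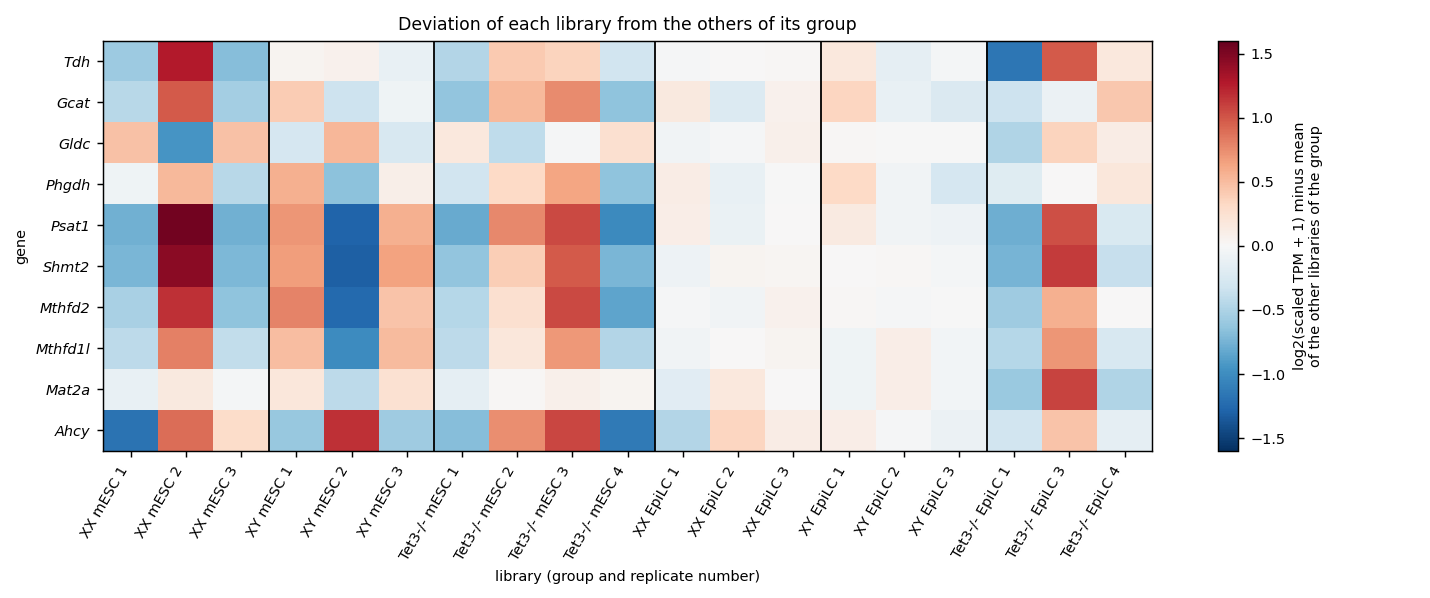
Deviation of each library (x axis) from the mean of the other libraries of its group, in log2(scaled TPM + 1), for the 10 genes (y axis); red is above and blue below. XX mESC 2 and Tet3-/- EpiLC 3 are mostly red, XY mESC 2 is blue for Psat1, Shmt2, Mthfd2 and Mthfd1l, and Gldc runs against those genes in the mESC columns.

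The other genes of the pathway were examined in 5 lists, of which 59 genes were tested. Their counts are to be read against all genes tested, of which 24.5% were called higher and 25.9% lower in XX, 26.4% and 25% in XY and 25.2% and 27.2% in Tet3-/-; nothing particular to a list was tested. Genes of glycine breakdown moved in both directions. Of 4 tested genes of threonine and glycine breakdown, 2 fell and 1 rose in XX, 1 fell and 2 rose in XY, and 2 fell and 1 rose in Tet3-/- (medians -0.51, 0.00 and -0.40). On unscaled TPM 1 fell and 1 rose in XX and in Tet3-/-, and 1 fell and 2 rose in XY. Amt, the aminomethyltransferase of the glycine cleavage system, fell in each genotype (-1.36, -1.56 and -1.30, limma adjusted p at most 2.4e-08), and its partner Gcsh fell in Tet3-/- (-0.96). In XX Gcsh fell with all libraries (-1.04) but rested on XX mESC 2, at 144.5 scaled TPM beside 46.4 and 46.2, and was not called without it (-0.50, limma adjusted p 0.0737). Gnmt, which methylates glycine, rose in each (0.89, 0.77 and 0.65) from a group mean of at most 0.286 scaled TPM in mESC. Gldc and Amt, of the same complex, thus moved in opposite directions in XY.

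Folate genes were called mostly lower on scaled values, but in XY on unscaled TPM, where the median gene was at 0.54, 3 were called higher and 2 lower. The unscaled counts were 1 higher and 4 lower in XX and 1 higher and 5 lower in Tet3-/-. Of 15 tested, 7 fell and 1 rose in XX, 6 fell and 2 rose in XY and 6 fell and 1 rose in Tet3-/- (medians -0.43, -0.19 and -0.25, all genes within 0.02 of 0). The cytosolic serine hydroxymethyltransferase Shmt1 was among the 2 lowest in XX and Tet3-/- (-1.36 and -1.47), and the folate receptor Folr1 in XX and XY (-1.21 and -2.32). Aldh1l1, a cytosolic folate oxidase, was among them in XY and Tet3-/- (-1.21 and -1.22). Mthfd2l, the paralog of Mthfd2, rose in each genotype (1.24, 1.93 and 1.11), and the folate carrier Slc19a1 rose in XY (0.58).

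Of 16 tested genes of the methionine cycle and transsulfuration, 6 fell and 2 rose in XX, 5 fell and 4 rose in XY and 6 fell and 3 rose in Tet3-/- (medians -0.36, -0.04 and -0.07), and on unscaled TPM the counts were 0 higher and 4 lower in XX, 5 and 3 in XY and 0 and 6 in Tet3-/-. Bhmt and Bhmt2, which methylate homocysteine from betaine or S-methylmethionine, were the 2 lowest in XX and Tet3-/- (-2.76 and -2.58 in XX, -3.10 and -2.45 in Tet3-/-). In XY they were Bhmt2 and Cbs, the entry enzyme of transsulfuration (-2.10 and -1.89). Bhmt went from group means of 2.88 to 8.54 scaled TPM in mESC to at most 0.0327 in EpiLC. Adk, which removes the adenosine that AHCY releases, and the AHCY-like gene Ahcyl1 were the 2 highest called genes in XX (0.61 and 0.49) and in Tet3-/- (0.46 and 0.57), and Ahcyl1 and the spermine synthase Sms were those in XY (0.94 and 0.82). The Tet3-/- call of Adk was lost without Tet3-/- EpiLC 3 (0.31, limma adjusted p 0.161).

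Of 8 tested genes of serine synthesis and uptake, the called ones rose: 1 in XX, 4 in XY and 3 in Tet3-/- (medians 0.07, 0.69 and 0.15). On unscaled TPM 1, 5 and 1 were called, all higher. The serine and neutral amino acid transporter Slc1a4 rose in each (0.89, 1.18 and 1.09), and the glycine transporter Slc6a9 rose in XY and Tet3-/- (1.18 and 0.87, the latter 0.57 without Tet3-/- EpiLC 3). Of 16 genes tied to the transcription factor ATF4 and the amino acid response, 2 rose and 3 fell in XX, 6 rose and 3 fell in XY and 7 rose and 1 fell in Tet3-/- (medians 0.22, 0.35 and 0.55). On unscaled TPM 2 rose and 1 fell in XX, 8 rose and 1 fell in XY and 3 rose and 1 fell in Tet3-/-. Without XX mESC 2 the XX counts were 5 higher and 1 lower (median 0.37). Without XY mESC 2 the XY counts were 4 higher and 3 lower (median 0.13). Without Tet3-/- EpiLC 3 the Tet3-/- counts were 5 higher and 1 lower (median 0.40). Asparagine synthetase, Asns, fell in each genotype (-1.32, -2.02 and -1.25), and Vldlr rose in each (0.79, 2.56 and 1.36). The transcription factor gene Cebpb was among the 2 highest in XX and Tet3-/- (1.05 and 2.21).

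**Figure D5:**
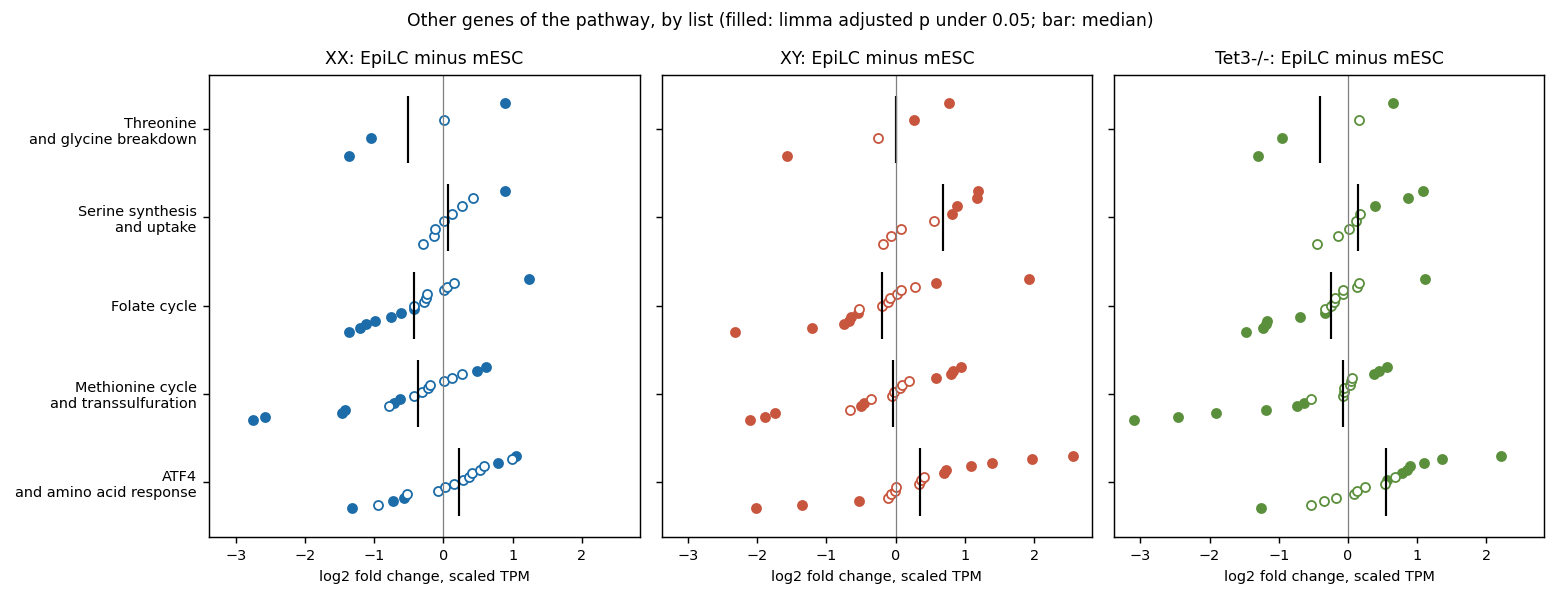
Log2 fold change from mESC to EpiLC on scaled TPM (x axis) of the other pathway genes tested, in 5 lists (y axis), for XX, XY and Tet3-/- cells; filled points passed an adjusted p of 0.05 and the bar is the list's median. The called folate genes lie mainly to the left on this scale, though not in XY on unscaled TPM, and the called genes of serine synthesis and uptake lie to the right. In the methionine list Bhmt is at -2.76 in XX and -3.10 in Tet3-/-.

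Few of these 59 genes were called with Tet3. In mESC the amino acid transporter Slc38a1 and the transcription factor gene Cebpb were lower in Tet3-/- (-0.71 and -0.73, limma adjusted p 0.0194 and 0.0414), and Sms was higher (0.55, limma adjusted p 0.0335; background 3.18%). Cebpb missed the threshold without XX mESC 2 (-0.69, limma adjusted p 0.0503). In that fit 1 folate gene was called higher, and 1 methionine gene was called higher and 1 lower. The serine and ATF4 lists had 1 gene each called lower. These counts are not set against a background. In EpiLC only Sms was called with all libraries, higher in Tet3-/- (0.66, limma adjusted p 0.0116, background 5.46%). Without Tet3-/- EpiLC 3, 1 folate gene was called lower and 1 methionine gene higher. Sms is X-linked, and none of the 4 calls made with all libraries was made on unscaled TPM. In the difference between the Tet3-/- and XX transitions limma called 0 of 59, with 5 at an unadjusted p under 0.05 (background 0.661%).

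Between the lines, 19 of 59 were called in mESC (13 higher and 6 lower in XX, background 31.3%) and 19 of 59 in EpiLC (6 higher and 13 lower, background 33.8%). The stress gene Ddit3 was higher in XX in both states (1.59 and 1.73), Folr1 likewise (0.83 and 1.94), and Sms was lower in both (-0.79 and -1.34). The serine carrier of mitochondria, Sfxn1, was lower in XX in EpiLC (-0.96), as was Slc1a4 in both states (-0.71 and -0.995). On unscaled TPM 5 of 59 were called in mESC (background 14.2%) and 31 in EpiLC (background 47.2%).

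The protein-coding genes most like Tdh over the 6 group means, by the root mean square difference of centred log2(scaled TPM + 1), were Klf2 (0.28), Epp13 (0.39), Cdo1 (0.40), Zfp42 (0.42) and Nr5a2 (0.46), out of 12490. For comparison, the centred values of Tdh had a root mean square of 2.20. Klf2, Zfp42 and Nr5a2 are genes of naive pluripotency and Cdo1 encodes cysteine dioxygenase. Nearest to Gldc were Fam71e1, Tcea2, Mmgt2, Nemp2 and Proser3 (0.07 to 0.10, against 0.39 for Gldc itself), and nearest to Phgdh were Duxbl2, Fbxw8, Gm3002, Lrrc75a and Gulo (0.08 to 0.12, against 0.40). With 6 points a gene, such lists describe the groups and nothing more.

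Because Psat1, Shmt2, Mthfd2, Mthfd1l and Phgdh moved together among mESC libraries, their promoters were searched for shared letters on both strands. RefSeq windows of 300 bases, from 250 before to 50 after the start (GRCm38.p6), matched 9 of the 10 genes, not Tdh. The C/EBP-ATF element TGATGNAA was in none of the members' windows and in 3.97% of 32851 promoters. The E-box CACGTG was found in Gcat, 2 bases after the start (7.15% of promoters), and GCATGC, the palindromic centre of sites of the factor NRF1, in Shmt2, from -17 to -12 (7.93%). The motifs do not overlap each other. The Shmt2 site is shown with its 60 bases upstream of the start, chr10:127522445-127522504, minus strand, with the motif in capitals, because it was the only match among the 5 genes that moved together.
Shmt2: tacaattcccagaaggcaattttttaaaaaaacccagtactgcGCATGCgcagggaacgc
A match is a description of letters, and its use by a factor was not tested.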

How the data were processed

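RNA-seq of 19 libraries in 6 groups was used. The authors deposited 1 table of TPM per transcript (140948 transcripts). The submitters' processing notes name FastQC 0.11.7, Trimmomatic 0.35, Salmon 1.1.0 and GRCm38. How these were used is not given in the sources used here. TPM was summed per gene with GENCODE M21 (139357 transcripts matched with version, 495 without, 1096 not matched, at most 0.215% of TPM in a library) and divided by median-of-ratios factors over 13815 genes. No counts were used, so depth is unknown and the precision rests on the number of libraries.

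Genes that reached a TPM of 1 in 3 or more libraries (14972) were tested with limma 3.58.1 (R 4.3.3, trend) on log2(scaled TPM + 1), 1 fit of all groups with 9 comparisons, and p-values were adjusted by Benjamini-Hochberg over all genes tested. Fold changes on this scale understate those of low genes. Copies were found with BLAST 2.17.0. The members and lists were chosen with earlier results of these data known. All 10 members are named. Of the pathway genes, those named are at most the 2 highest and 2 lowest called per list in a transition or between the lines, and all called ones for Tet3, and the 5 nearest genes are named for Tdh, Gldc and Phgdh. The fit was tested on simulated data in which 200 of 14972 genes were changed. A change of 1 log2 unit was recovered for 75% of them in the XX transition. It was recovered for 77% in Tet3-/- against XX mESC and 48.5% in the XX against XY transition. For a change of 2 log2 units these shares were 96%, 94% and 92.5%. Smaller changes in a difference of transitions can thus be missed. Alternatives were unscaled TPM, other filters, pseudocount and scaling, a replicate block, a fit of only the groups compared, and each library left out. Leaving out the 3 most deviating libraries and adding the copies were chosen after seeing the data.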

Additional observations from a re-analysis of the deposited data

Results flagged for a closer look

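Tdh differed between the lines in its transition: the XX change minus the XY change was 2.69 log2 units (SE 0.47, limma adjusted p 0.000556), with all 3 XX and all 3 XY EpiLC libraries below every mESC library of their line.

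Gldc differed in the other direction, with a XX change minus XY change of -0.97 (SE 0.31, limma adjusted p 0.0345), a call that was lost with no filter on low genes (limma adjusted p 0.0835), on TPM rescaled over protein-coding genes (-1.11, limma adjusted p 0.0661) and without any 1 of 10 libraries (-0.99 to -0.81). No explanation was tested for either.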

How the results depend on the processing

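On unscaled TPM 1 member was called in the XX transition (2 on scaled values), 1 in Tet3-/- (3), 0 between Tet3-/- and XX EpiLC (1), 1 between XX and XY mESC (4) and 2 between XX and XY EpiLC (1). Over all genes the calls there were 4689 in XX (7541), 90 between Tet3-/- and XX mESC and 161 between their EpiLC (476 and 818), 2121 between XX and XY mESC (4683) and 26 for the Tet3-/- transition against the XX transition (99). The XY change of Mat2a was 0.016 on unscaled TPM and -0.64 on scaled values. With TPM of at least 5, calls over all genes were 4999 in XX, 51 for the Tet3-/- against XX transition and 2186 for the XX against XY transition (3547). When calls also had to pass a 1 log2 unit change, members called were 4 in the XY transition (7), 1 in Tet3-/-, 2 between XX and XY mESC and 1 for the XX against XY transition (2), and genes called were 2807 in XX, 2951 in XY (7689), 2883 in Tet3-/- (7843), 67 and 139 for Tet3-/- against XX, 1340 and 1338 for XX against XY in mESC and EpiLC (5066 in EpiLC), 50 for the Tet3-/- against XX transition and 1638 for the XX against XY transition.

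Without XX mESC 2, XY mESC 2 and Tet3-/- EpiLC 3 together, members called were 2 for Tet3-/- against XX mESC (0), 3 between XX and XY EpiLC and 1 for the Tet3-/- against XX transition (0), and genes called were 3419 between Tet3-/- and XX mESC, 1504 between their EpiLC, 7579 between XX and XY mESC, 1593 for the Tet3-/- against XX transition and 6089 for the XX against XY transition. On TPM rescaled over protein-coding genes, 178 genes were called between Tet3-/- and XX mESC, and 1 member in each difference of transitions. In a fit of only the groups compared, members called were 0 between Tet3-/- and XX EpiLC, 0 between XX and XY mESC and 6 between XX and XY EpiLC, and genes called were 8 and 404 for Tet3-/- against XX, 2326 and 8646 for XX against XY and 50 for the Tet3-/- against XX transition. With no filter, 0 members were called between Tet3-/- and XX EpiLC and 1 for the XX against XY transition. A pseudocount of 0.1 gave 62 genes for the Tet3-/- against XX transition. The causes of these shifts were not tested.

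The replicate numbers were not taken to pair the samples, because the labels do not say that they do. Deviations of same-numbered mESC and EpiLC libraries correlated at 0.04, -0.05 and 0.06 in XX, 0.21, -0.03 and 0.27 in XY and 0.22, 0.22 and -0.09 in Tet3-/-. Different-numbered ones ran from -0.092 to 0.043 in XX, -0.278 to 0.087 in XY and -0.274 to 0.195 in Tet3-/-. The XY values of 0.21 and 0.27 and the Tet3-/- values of 0.22 and 0.22 were above every different-numbered value of their genotype. Whether the numbers pair the samples is thus not settled by these values. Across genotypes, same-numbered XX and Tet3-/- mESC libraries 1 to 3 correlated at 0.468, 0.477 and -0.444. Those of XX and XY mESC were at -0.164, -0.293 and 0.093. Different-numbered libraries were not compared across genotypes. With a replicate block 0 members were called between Tet3-/- and XX EpiLC (Tdh -1.23, limma adjusted p 0.0618) and 14 genes for the Tet3-/- against XX transition, Mthfd1l passed in the XY transition (0.66, limma adjusted p 0.0381), and the other 88 of 90 member values stayed on their side of the threshold.

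Leaving out 1 library at a time gave the following ranges of members and genes called: XX transition 2 to 2 and 6520 to 8080, XY 5 to 8 and 6540 to 8281, Tet3-/- 1 to 4 and 7015 to 8347. For Tet3-/- against XX they were 0 to 2 and 190 to 1593 in mESC, 0 to 1 and 366 to 1162 in EpiLC, and 0 to 1 and 53 to 361 for the transition. For XX against XY they were 3 to 5 and 3383 to 6024 in mESC, 1 to 2 and 3901 to 5828 in EpiLC, and 1 to 2 and 2824 to 4609 for the transition. Of 1710 member values with a library left out, 28 lost and 14 gained a call and 0 of those called changed sign. TPM keeps no depth, so no limit by depth can be given.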
